A study of Mus musculus with 9 samples.

Results

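Transcripts of 10 glycolytic enzyme genes, of the 55414 genes listed, were followed in cultured mouse round spermatids (RS): Hk1, Gpi1, Pfkp, Aldoa, Aldoart1, Tpi1, Gapdhs, Pgk2, Eno1 and Pkm. The genes were chosen by name as enzymes of the glycolytic steps other than phosphoglycerate mutase, with germ cell isoforms among them. Earlier results of these data were known at the choice. The table holds 11 rows under these 10 names because Aldoa stands under 2 Ensembl identifiers, and all 11 rows had enough reads to be tested. RS are the haploid cells that follow meiosis. They had been sorted from testes of adult mice carrying a Stra8-iCre driver, which acts in germ cells from the spermatogonial stage on, and a tdTomato reporter, on a C57Bl/6 background, while the sample labels give the genotype as WT. The cells of all 3 groups were kept for 24 h in a medium with glutamine, sodium lactate and sodium pyruvate, and received DMSO to 0.15%. One group received nothing else (vehicle). The oxamate group received 24 mM oxamate, an inhibitor of lactate dehydrogenase (LDH). The third group received 24 mM oxamate and 0.3 mM octyl-L2HG, a cell-permeable ester of L-2-hydroxyglutarate (L-2HG). Each group holds 3 libraries, numbered 1 to 3, 4 to 6 and 7 to 9, and the labels do not say whether these came from separate cultures or animals, so the p-values measure the spread between these libraries, which may be technical.

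Glycolysis splits glucose into pyruvate, and LDH then reduces pyruvate to lactate while it regenerates NAD+. Male germ cells replace several of the somatic enzymes by isoenzymes of their own. Gapdhs and Pgk2 are needed for the motility of sperm, Pgk2 is an autosomal retrogene copy of the X-linked Pgk1, and Aldoart1 and Aldoart2 are retrogene copies of Aldoa. Transcripts of Hk1 with testis-specific first exons are also known. The counts are per gene and cannot separate such transcripts.

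Libraries held between 32339533 and 39888396 counted reads. Oxamate library 4 stood apart: on the first 2 principal components of the 10715 genes that averaged at least 100 normalized counts, it lay farther from its nearest oxamate library (18.2) than from its nearest library of another group (14.6), whereas oxamate libraries 5 and 6 lay 2.99 apart. Per degree of freedom, the chi-square of its counts against theirs was 16.7 and 20.7, and 1.98 between libraries 5 and 6. For the glycolytic rows, library 4 held the highest oxamate value in 7 of 11 and the lowest in 1, and the calls that change without it are given beside the genes. All 10 fixed RS markers (among them Acrv1, Acr, Tnp1 and Prm1) were counted. Their summed normalized count (reads divided by a size factor of each library) ranged from 71726 to 73567 with vehicle, from 65291 to 67826 with oxamate and from 63560 to 65119 with both compounds, with no overlap between groups. The 8 spermatocyte markers, all counted, summed to between 5758 and 7028 with overlapping groups. The 6 spermatogonial markers, all counted, summed to between 240 and 258 with vehicle, 275 and 286 with oxamate, and 264 and 278 with both compounds. The 5 myoid markers summed to between 86.2 and 94.2 with vehicle, 98.1 and 112 with oxamate, and 82.4 and 96.6 with both compounds. In the same order, the 5 Leydig markers summed to 28.4 to 38.2, 19.7 to 27.6 and 32.3 to 40.3. The 6 Sertoli markers summed to 3.79 to 7.33, 4.39 to 7.62 and 2.31 to 3.37. The 5 macrophage markers summed to between 94.3 and 124 with overlapping groups, and the 4 globin genes to at most 0.962. In the vehicle libraries 2 Leydig, 1 macrophage and 2 globin genes had no read. The part of these cell types in the results was not tested. In bulk RNA, fewer cells of a type and less RNA per cell cannot be told apart.

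The isoforms are close in sequence, which bears on whether a read can be assigned to one gene. For each somatic gene and its germ cell copies, a stretch of 75 bases from the middle of the somatic coding sequence is given here, from transcripts of the mouse build GRCm38 (annotation GENCODE M21), 5′ to 3′, with capitals where a copy differs from the somatic gene. The first 3 lines are bases 592 to 666 of the Aldoa coding sequence, the next 2 are bases 466 to 540 of Gapdh, and the last 2 are bases 592 to 666 of Pgk1.
Aldoa: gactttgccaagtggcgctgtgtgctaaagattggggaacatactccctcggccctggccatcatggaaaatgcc
Aldoart1: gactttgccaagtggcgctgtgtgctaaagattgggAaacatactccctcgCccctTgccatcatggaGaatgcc
Aldoart2: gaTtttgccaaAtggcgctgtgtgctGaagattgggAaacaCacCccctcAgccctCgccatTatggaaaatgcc
Gapdh: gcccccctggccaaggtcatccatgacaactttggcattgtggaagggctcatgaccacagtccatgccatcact
Gapdhs: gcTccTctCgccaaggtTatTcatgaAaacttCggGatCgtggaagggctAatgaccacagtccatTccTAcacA
Pgk1: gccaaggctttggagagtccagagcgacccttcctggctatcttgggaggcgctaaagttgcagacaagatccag
Pgk2: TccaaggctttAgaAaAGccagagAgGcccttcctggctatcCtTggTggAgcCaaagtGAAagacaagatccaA
Within this stretch Aldoart1 differs from Aldoa at 4 bases, Aldoart2 at 9, Gapdhs from Gapdh at 14 and Pgk2 from Pgk1 at 16. Over the aligned coding sequences, Aldoart1 is 93.9% identical to Aldoa, Aldoart2 91.6%, Pgk2 79.3% to Pgk1 and Gapdhs 70.7% to Gapdh.

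The germ cell copies could be told apart by a read of 75 bases almost everywhere. This length follows the study's methods, while the sample labels name another sequencing kit with more cycles, and shares at other lengths were not computed. Of the 75-base windows along the transcript, none of Gapdhs, Pgk2, Hk1 or Pfkp also occurs in a transcript of another gene, and 0.961% of those of Aldoart1 and 1.49% of those of Aldoa do. The share was 2.48% for Tpi1, 9.96% for Gpi1 and 19.6% for Pkm. It was 65.4% for Eno1, mostly shared with its copy Eno1b and the processed gene Gm4735, and it was higher still for the somatic partners Pgk1 (67.5%) and Gapdh (80.3%). Reads from shared windows may have been dropped or assigned to a copy, so the levels of Eno1, Pgk1 and Gapdh below are uncertain. Single-exon transcripts were found for Pgk2, Aldoart1 and Aldoart2, against 11 exons for Pgk1 and 10 for Aldoa.

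Gapdhs, Pgk2 and Hk1 were the most abundant members, and Gpi1 and Pkm among the least. To compare genes, normalized counts were divided by the length of the transcript in kb. In vehicle, Pgk2 (ENSMUSG00000031233, chr17:40207015-40208640 in GRCm38, as are all positions below) and Gapdhs (ENSMUSG00000061099, chr7:30729775-30743681) were the highest members, at 18019.5 ± 535 and 17604 ± 733 normalized counts per kb (SD, n = 3), and their libraries overlapped. Hk1 (ENSMUSG00000037012, chr10:62268855-62379908) followed at 13741 ± 947, below every library of Gapdhs. Tpi1 (ENSMUSG00000023456, chr6:124810586-124814296) stood at 7539 ± 612 and Aldoa (ENSMUSG00000030695, chr7:126795234-126800751) at 6559.8 ± 361 per kb. Eno1 (ENSMUSG00000063524, chr4:150236721-150248879) stood at 4487 ± 394, Pfkp (ENSMUSG00000021196, chr13:6579768-6648777) at 2891 ± 184 and Aldoart1 (ENSMUSG00000059343, chr4:72850583-72852634) at 2121 ± 87.7. From Gapdhs down to Aldoart1, each gene's vehicle libraries lay above all those of the next. The lowest 3 rows were Pkm (ENSMUSG00000032294, chr9:59656368-59679375) at 1107 ± 50.4, the second Aldoa row (ENSMUSG00000114515, chr7:126800790-126809108, which lies directly next to the other Aldoa gene on the same strand) at 1029 ± 90.9 and Gpi1 (ENSMUSG00000036427, chr7:34201330-34230336) at 975.5 ± 33.3 per kb, and neighbours in this order overlapped. In oxamate and in both compounds the libraries of Gapdhs and Pgk2 no longer overlapped, with Gapdhs above Pgk2 in oxamate and Pgk2 above Gapdhs in both compounds.

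**Figure D1:**
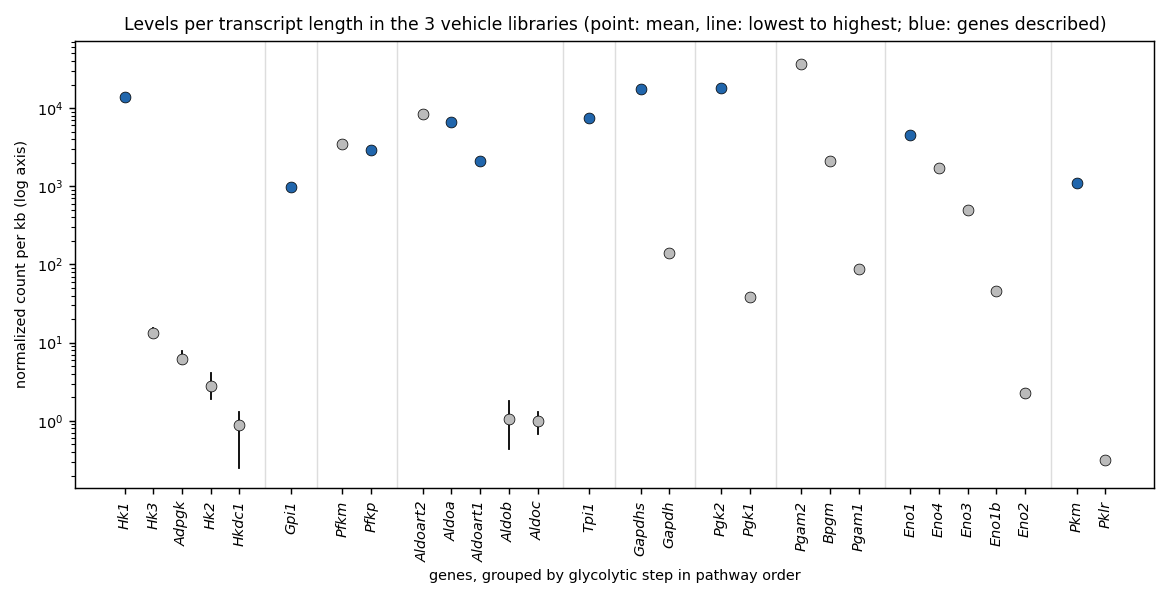
Normalized counts per kb of transcript (log axis) of the genes of each glycolytic step in the 3 vehicle libraries, as means with the lowest and highest library, in pathway order; blue points are the 10 genes followed here, grey points other isoenzymes reported here that had a count in each vehicle library. Gapdhs and Pgk2 sit more than 100-fold above Gapdh and Pgk1, whose levels are uncertain. Pfkp, Aldoa and Aldoart1 have a neighbour of the same step at a like or higher level.

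Within its step, and per kb, Pgk2 made up 99.8% of the phosphoglycerate kinase reads in vehicle and Gapdhs 99.2% of the glyceraldehyde-3-phosphate dehydrogenase reads, with the same rounded share in each library. Reads of Pgk1 and Gapdh from shared windows may be missing from these shares. Hk1 made up 99.6% of the hexokinase reads and Pkm 99.97% of the pyruvate kinase reads. The aldolase step was shared: Aldoart2 held 48.8% ± 0.0565 (SD, n = 3), Aldoa 38.6% ± 0.935 and Aldoart1 12.5% ± 0.882, where the second Aldoa row was left out of the step. For 2 other steps the member was not the only sizeable gene. Pfkp held 45.3% ± 0.645 of the phosphofructokinase reads beside Pfkm, the muscle type subunit, with 54.7% ± 0.643. Eno1 held 66.4% ± 1.19 of the enolase reads beside Eno4, an enolase found in sperm, with 25.6% ± 0.625. Phosphoglycerate mutase, which has no member, was carried by Pgam2, the muscle isoform also known from sperm, at 94.4% ± 0.253 of its step. The rest of that step was Bpgm at 5.38% and Pgam1 at 0.221%. Pfkm, Eno4 and Bpgm were named after their values were seen.

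Oxamate alone moved none of the 11 rows past the threshold. When octyl-L2HG was added to oxamate, 3 genes were lower: Gpi1, Gapdhs and Pkm. On the log2 scale, Gpi1 changed by -0.19 with oxamate alone and by -0.25 when octyl-L2HG was added. The same 3 genes were lower with both compounds than with vehicle. The other 8 rows, Pgk2, Hk1 and the aldolases among them, did not pass in any of the 3 comparisons. The comparison of oxamate with vehicle asks what oxamate does to these transcripts, that of both compounds with oxamate what octyl-L2HG adds to it. No group received octyl-L2HG alone or another octyl ester, so effects of L-2HG and of the ester cannot be told apart. Both involve the oxamate libraries, and both compounds and oxamate are each set against the same vehicle libraries.

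**Figure D2:**
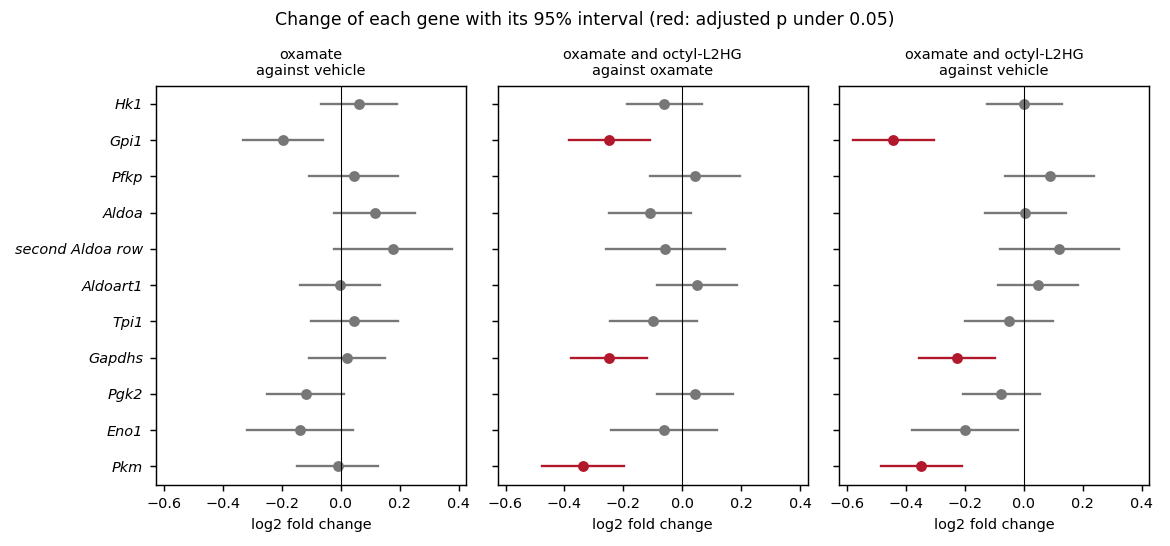
Log2 fold change of each row with its 95% interval from edgeR in the 3 comparisons; red marks an adjusted p under 0.05. In the left panel all 11 rows are grey, and in the other panels Gpi1, Gapdhs and Pkm lie below 0.

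For oxamate against vehicle, the quasi-likelihood test of edgeR (p-values adjusted by Benjamini-Hochberg) called 0 of 11 rows, against 5.19% of the 25128 genes tested (3.97% higher and 1.22% lower) and 9.67% of the 10715 genes averaging at least 100 normalized counts. One row, Gpi1, had an unadjusted p under 0.05, and DESeq2 also called 0. All oxamate libraries lay below all vehicle libraries for 2 rows, Gpi1 and Pgk2, and above them for 0, where 9.95% of all genes lay below, 11.4% above and 21.3% either way. The log2 fold changes of the members ran from -0.19 to 0.18 with a median of 0.02, beside a median of -0.01 over all genes tested and 0.0098 over the genes averaging at least 100 normalized counts. Without oxamate library 4, 2 rows passed, Gpi1 and Eno1, both lower with oxamate.

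For both compounds against oxamate, 3 of 11 rows were called lower and 0 higher, where 8.06% of all genes tested were called lower, 3.18% higher and 11.2% in all, and 19.8% of those averaging at least 100 normalized counts. The groups did not overlap for 4 rows, 3 below and 1, Aldoart1, above, where 15.3% of all genes lay below, 13.4% above and 28.8% either way. The members' median was -0.06, beside -0.04 over all genes tested and 0.0099 over the genes averaging at least 100 normalized counts. For both compounds against vehicle, again 3 of 11 rows were called lower and 0 higher, where 10.6% of all genes were called lower, 7.48% higher and 18.0% in all, and 29.5% of those averaging at least 100 normalized counts. The groups did not overlap for 5 rows, Gpi1, Gapdhs, Eno1 and Pkm below and Aldoart1 above, where 18.5% of all genes lay below, 18.0% above and 36.5% either way. Here the median was -0.05, as over all genes tested, where the genes averaging at least 100 normalized counts had a median of 0.03. The 3 rows are 27.3% of the 11, near the share of well-counted genes called, so their number is no result about the members. Total counts as the scaling lowered the share of higher calls among all genes from 28.3% to 14.3% against oxamate and from 41.4% to 26.8% against vehicle, and the 3 members stayed lower. A test of any difference among the 3 groups called the same 3 genes of the 11 (Gpi1, adjusted p = 0.000178; Pkm, 0.00076; Gapdhs, 0.00938), where 19.8% of all genes passed.

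Gpi1 makes glucose-6-phosphate isomerase, which turns glucose 6-phosphate into fructose 6-phosphate. It was the one member whose 3 groups stood in 3 separate ranges. Normalized counts were 2906, 2714 and 2819.8 with vehicle, 2438, 2526 and 2387 with oxamate, and 2185, 2082 and 2038 with both compounds. Each group lay wholly below the one before, as did the summed RS markers given above, whose part in this was not tested. Against oxamate, both compounds lowered Gpi1 by a log2 fold change of -0.25 ± 0.066 (SE; adjusted p = 0.0169), so that the level fell by 15.8%. Against vehicle the log2 fold change was -0.44 ± 0.066 (adjusted p = 5.24e-05), and the level fell by 26.4%. Oxamate alone differed from vehicle by -0.19 ± 0.065, which missed the threshold (adjusted p = 0.0949, 95% interval -0.33 to -0.06), and passed without oxamate library 4. The call against oxamate was lost without oxamate library 5, without library 8 or without library 9, and with no filter on low counts.

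Gapdhs, the sperm isoenzyme of glyceraldehyde-3-phosphate dehydrogenase, which makes 1,3-bisphosphoglycerate and NADH, was lower with both compounds only. Its normalized counts were 26036, 24442 and 26469.5 with vehicle, 27583, 25499 and 24793 with oxamate, and 22081, 22199.6 and 22439 with both compounds. The vehicle and oxamate libraries overlapped, and all 3 libraries with both compounds lay below them. The log2 fold change of both compounds was -0.25 ± 0.062 against oxamate (adjusted p = 0.0113) and -0.23 ± 0.062 against vehicle (adjusted p = 0.0128). The level fell by 15.9% against oxamate and fell by 14.6% against vehicle. Oxamate alone gave 0.02, with a 95% interval from -0.11 to 0.15. Both calls were lost without library 7 or without library 8, and that against vehicle also without vehicle library 3 or with no filter on low counts. The summed RS markers given above were lower with both compounds than with oxamate or vehicle, and their part in the change of Gapdhs was not tested.

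Pkm makes pyruvate kinase, which forms pyruvate and ATP in the last step. It had the largest change of the members between both compounds and oxamate. Normalized counts of 2615, 2630.0 and 2834 with vehicle and of 2625, 2802 and 2564 with oxamate overlapped, and those with both compounds, 2157, 2156 and 2131, lay below all of them. The log2 fold change was -0.34 ± 0.067 against oxamate (adjusted p = 0.0021) and -0.35 ± 0.067 against vehicle (adjusted p = 0.000723), and the level fell by 20.8% against oxamate and fell by 21.4% against vehicle. Pkm passed both tests with each of the 9 libraries left out in turn and in all 7 other settings. The summed RS markers were lower with both compounds than in either other group as well, and their part here was not tested. The gene makes 2 known splice forms, PKM1 and PKM2, which counts per gene cannot separate.

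**Figure D3:**
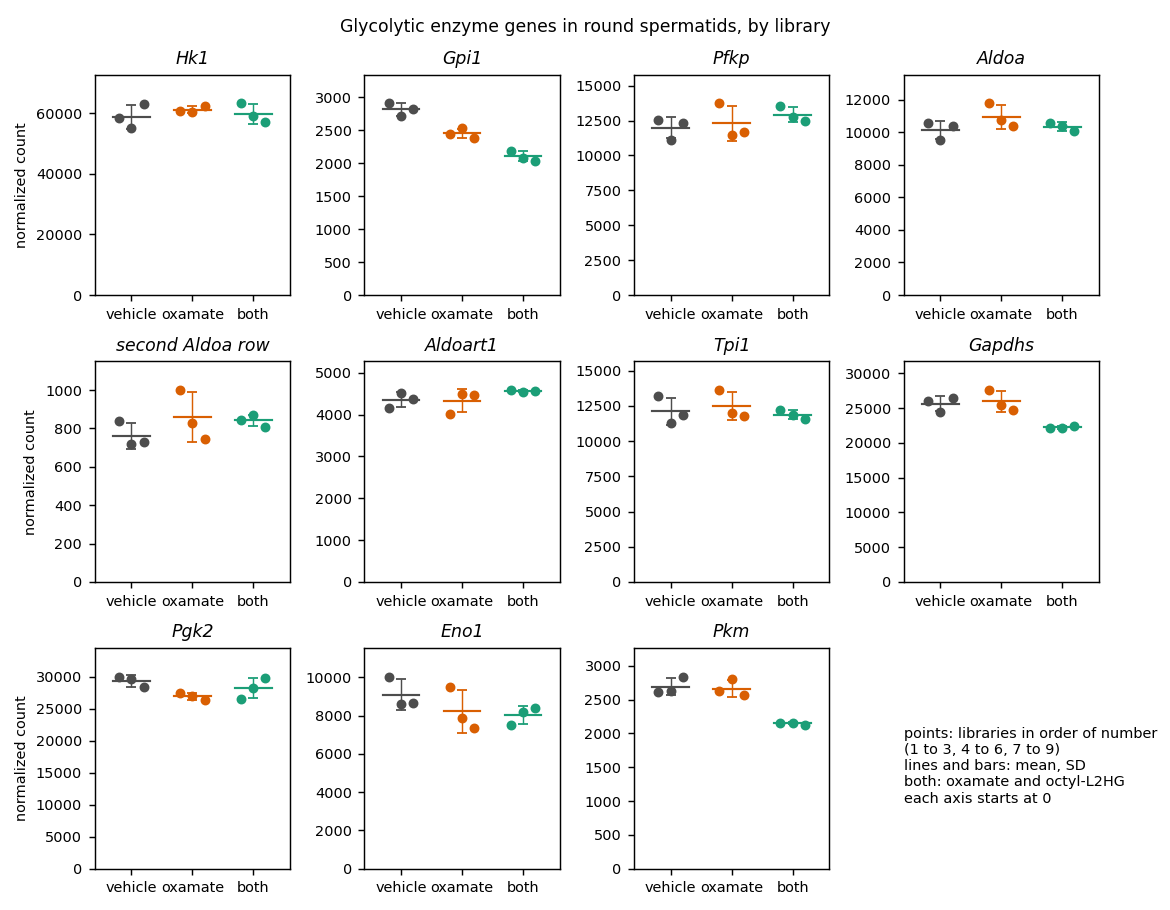
Normalized counts of each row in the 9 libraries (points in order of library number), with the group mean and SD; each axis starts at 0. The 3 groups of Gpi1 lie in separate ranges, Gapdhs and Pkm are lower in the 3 libraries with both compounds alone, and oxamate library 4 is the highest oxamate point of Eno1, Pfkp and Tpi1.

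Pgk2, which makes the first ATP of the pathway in sperm, was not called in any comparison. Its normalized counts were 29919, 29674 and 28306 with vehicle, 27408, 26907 and 26359 with oxamate, and 26543, 28254 and 29782 with both compounds. All oxamate libraries lay below all vehicle libraries, and the libraries with both compounds overlapped with both. The log2 fold change was -0.12 for oxamate against vehicle (adjusted p = 0.341, 95% interval -0.25 to 0.01), 0.04 for both compounds against oxamate (-0.09 to 0.17) and -0.08 for both compounds against vehicle (-0.21 to 0.05).

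Eno1 makes the enolase that forms phosphoenolpyruvate. Its normalized counts were 10015, 8593 and 8675 with vehicle, 9497, 7881 and 7336 with oxamate and 7492, 8202 and 8413 with both compounds. Library 4 gave the oxamate group a CV of 13.6%, and the libraries with both compounds lay below those with vehicle. Eno1 fell short of the threshold in that comparison, at -0.20 ± 0.087 (adjusted p = 0.122), but passed with total counts as the scaling (-0.26) and in the fit of only the groups compared. Without oxamate library 4, the change with oxamate against vehicle became -0.26 and passed, and that of both compounds against vehicle, -0.20, passed as well. Reads shared with copies of the gene limit this value.

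Of the upper steps, Hk1, which phosphorylates glucose, stayed within its spread. Its normalized counts ran from 54965 to 63032 with vehicle, from 60359 to 62456 with oxamate and from 57012 to 63244 with both compounds, and the 95% intervals of its log2 fold change reached no further than -0.19 and 0.19 in the 3 comparisons. Pfkp, the platelet type subunit of phosphofructokinase, the main regulated step, ran from 11113 to 12516 with vehicle, from 11478 to 13734 with oxamate, where the highest value is that of library 4, and from 12480.4 to 13518 with both compounds. Its intervals lay between -0.11 and 0.24. Tpi1, which interconverts the triose phosphates, ran from 11294 to 13205, from 11813 to 13621 and from 11549 to 12195 in the same order, and its intervals lay between -0.25 and 0.19. All 3 genes overlapped between groups in each comparison.

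The aldolases split fructose 1,6-bisphosphate. Aldoa itself had normalized counts of 10557, 9522 and 10404 with vehicle, 11786, 10730.5 and 10374 with oxamate, and 10601, 10382 and 10065 with both compounds, and the groups overlapped. Its log2 fold changes were 0.11 (95% interval -0.02 to 0.25) for oxamate against vehicle and -0.11 (-0.25 to 0.03) for both compounds against oxamate. Aldoart1 had counts of 4159.9, 4517 and 4378 with vehicle and 4015, 4500.5 and 4477 with oxamate, which overlapped. With both compounds, its counts of 4582, 4548 and 4561 had a CV of 0.38% and lay above all 6 other libraries, but the difference was small, 0.05 against oxamate (adjusted p = 0.722) and 0.05 against vehicle (adjusted p = 0.694), and total counts as the scaling turned the second to -0.02. The second Aldoa row had between 716 and 999 normalized counts, overlapped between all groups and did not pass. Aldoart2, the other retrogene copy, ran from 13239 to 14015 with vehicle, from 13417 to 13725 with oxamate and from 12451 to 12657 with both compounds. Its libraries with both compounds lay below the other 6, yet its log2 fold changes of -0.14 against oxamate (adjusted p = 0.136) and -0.15 against vehicle (adjusted p = 0.0829) missed the threshold. Scaled by total counts, both passed, at -0.18 and -0.21, and the difference from vehicle also passed without oxamate library 4.

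Together the 11 rows took 0.475% ± 0.012 of all counted reads with vehicle (SD, n = 3), 0.472% ± 0.0108 with oxamate and 0.436% ± 0.000979 with both compounds. The libraries with both compounds, 0.435% to 0.437%, lay below the other 6, which ranged from 0.461% to 0.485%. This holds for shares of the total counts only. Summed as normalized counts, the 11 rows held from 160181 to 171821 with vehicle, from 165018 to 174482 with oxamate and from 161279.7 to 165443 with both compounds, and the groups overlapped. The largest parts of the sum were Hk1, Pgk2 and Gapdhs.

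Ratios of a germ cell gene to its somatic partner were taken within each library, since they do not depend on the scaling between libraries. With vehicle, there were 383, 447 and 423 reads of Pgk2 for each read of Pgk1, with oxamate 429, 399 and 445, and with both compounds 492, 598 and 413. The groups overlapped, and Pgk1 rests on between 40 and 87 reads per library. For Gapdhs and Gapdh the ratio was 128, 122 and 134 with vehicle, 136, 126 and 116 with oxamate, and 93.6, 111 and 112 with both compounds. All 3 libraries with both compounds lay below the other 6. On the log2 scale the ratio of Gapdhs to Gapdh differed by -0.26 between both compounds and oxamate and by -0.28 between both compounds and vehicle (exact two-sided permutation test, p = 0.1 for each, the smallest that 3 against 3 libraries allow, and adjusted p = 0.24 over the 12 tests of 4 ratios). Gapdh itself, with between 173 and 228 reads per library, gave log2 fold changes of 0.04, 0.01 and 0.06 in the 3 comparisons, none past the threshold. Pgk1 and Gapdh share most of their 75-base windows with other genes, so the level of their ratios is uncertain.

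The ratio of Aldoart1 to Aldoa was 0.394, 0.474 and 0.421 with vehicle, 0.341, 0.419 and 0.432 with oxamate, and 0.432, 0.438 and 0.453 with both compounds. Only the comparison of both compounds with oxamate separated its groups, by a log2 difference of 0.16, and narrowly, since the highest oxamate library and the lowest library with both compounds stood at -1.212 and -1.210 (exact permutation p = 0.1, adjusted p = 0.24). Ldhc and Ldha, the germ cell and muscle type subunits of the enzyme that oxamate inhibits, stood at a ratio of 3.80, 3.57 and 3.64 with vehicle, 3.89, 3.62 and 3.52 with oxamate and 3.33, 3.38 and 3.52 with both compounds. The log2 difference was -0.11 between both compounds and oxamate and -0.11 between both compounds and vehicle, with p = 0.1 by the exact permutation test and adjusted p = 0.24 for each. The separation from oxamate was narrow here too, with log2 ratios of 1.8149 in the lowest oxamate library and 1.8142 in the highest library with both compounds. With this design none of the 12 tests could reach an unadjusted p of 0.05.

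**Figure D4:**
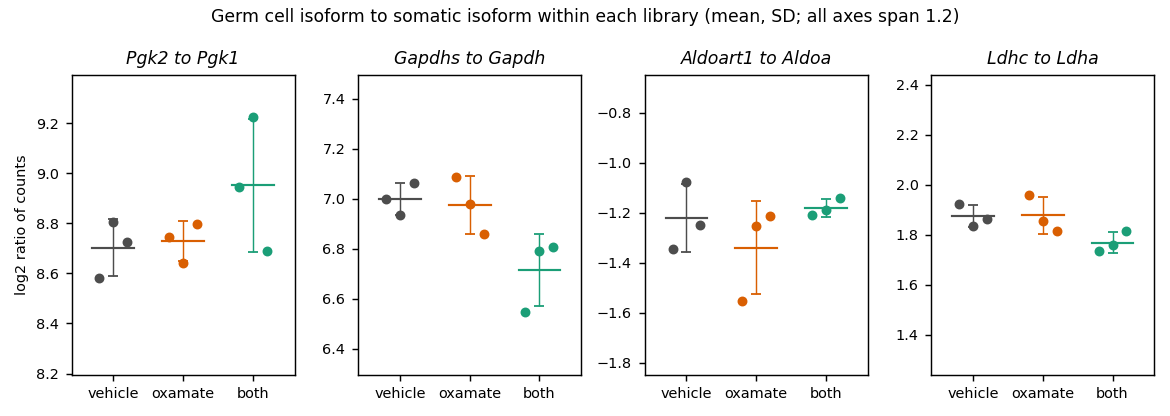
Log2 ratio of the counts of a germ cell gene to those of its somatic partner in each of the 9 libraries, with the group mean and SD; the 4 vertical axes differ in position and each spans 1.2. The Gapdhs to Gapdh ratio is lower in the libraries with both compounds, as is, narrowly against oxamate, that of Ldhc to Ldha, while the Pgk2 to Pgk1 ratio overlaps between groups.

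Outside the members, 34 genes of the pathway were listed: 20 isoenzymes, 6 regulators and 8 genes of the reverse path, gluconeogenesis. Of these, 32 were tested. Oxamate against vehicle called 1 higher and 0 lower, both compounds against oxamate called 0 higher and 1 lower, and both compounds against vehicle called 1 higher and 3 lower. These are 3.12%, 3.12% and 12.5% of the 32, where 5.19%, 11.2% and 18.0% of all genes were called. Their median log2 fold changes were -0.05, -0.07 and -0.08, beside -0.01, -0.04 and -0.05 over all genes tested. The 4 LDH genes, Ldha, Ldhb, Ldhc and Ldhal6b, were not called in any comparison. Of the reverse path none was called, with 7 of 8 genes tested.

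The enzymes that make and break fructose 2,6-bisphosphate, the activator of phosphofructokinase, did not move as one. Only the listed regulators called in a comparison are described, and the others were called in none. Pfkfb3 had normalized counts of 1346, 1309.8 and 1398 with vehicle, 1517, 1593 and 1578 with oxamate, and 1259, 1261 and 1231 with both compounds. Its oxamate libraries lay above the other 6, and the fall from oxamate to both compounds passed, at -0.35 ± 0.068 on the log2 scale (adjusted p = 0.00183), whereas the difference between oxamate and vehicle, 0.21 ± 0.067, did not (adjusted p = 0.0703) unless library 4 was left out. Its libraries with both compounds also lay below those with vehicle, by -0.13 ± 0.068 (adjusted p = 0.191), a difference that passed when scaled by total counts (-0.20) and with the transcript length offset (-0.25). Pfkfb4, known from testis, had counts of 599.7, 549 and 587 with vehicle, 715, 583 and 592 with oxamate, and 731, 767 and 815 with both compounds. It was higher with both compounds than with vehicle by 0.39 ± 0.090 (adjusted p = 0.00329). Against oxamate, all 3 libraries with both compounds were also above, but the difference of 0.26 ± 0.090 missed the threshold (adjusted p = 0.0606), which it passed in 5 of 7 other settings, DESeq2 among them, and without library 4. Pfkfb2 ran from 323 to 374 with vehicle, from 275 to 341 with oxamate and from 248 to 305 with both compounds, and was lower with both compounds than with vehicle by -0.35 ± 0.10 (adjusted p = 0.0221), a call lost without library 3, 8 or 9.

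Minor isoenzymes of other steps were called as well. Pgam1, the brain type phosphoglycerate mutase, had 158, 145 and 158 with vehicle, 264, 187 and 178 with oxamate, and 189.8, 172 and 169 with both compounds. Its rise with oxamate, 0.46 ± 0.13 (adjusted p = 0.0475), was not stable. It passed in 2 of 9 fits with a library left out and in 3 of 7 other settings, not with DESeq2, and was 0.25 without library 4. Of its 75-base windows, 40.6% are shared with its pseudogenes. Eno2, the neuronal enolase, was counted with 8, 7 and 6 raw reads with vehicle, 1, 1 and 2 with oxamate and 0, 1 and 0 with both compounds, and the difference between both compounds and vehicle passed (adjusted p = 0.00291). These are low levels beside Pgam2 and Eno1, the main genes of the same steps. Pgam2 had between 27487 and 33507 normalized counts with overlapping groups and was not called.

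The genes whose values over the 9 libraries lay closest to 3 of the germ cell genes were found by the root mean square difference of log2 normalized counts centred per gene, over 10714 other genes. Closest to Pgk2 were Gk2 (0.0216), Ms4a19 (0.0255) and Gna13 (0.0297). Gk2 is a testis glycerol kinase. For comparison, Pgk2 itself deviated from its own mean by 0.0684 on this scale. Closest to Gapdhs, which deviated by 0.111, were Spata20 (0.0228), BB014433 (0.0260) and D11Wsu47e (0.0315). Closest to Aldoart1, which deviated by 0.0627, were Ivns1abp (0.0186), 1700034J05Rik (0.0246) and Ddx5 (0.0263). The measure favours genes that vary little, and over 9 libraries of 3 groups it is a description alone.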

How the data were processed

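RNA-seq was done on 9 libraries of sorted, cultured RS, 3 per group, grouped and numbered by the sample labels. The authors trimmed the reads (cutadapt 2.10), aligned them with TopHat2 2.1.1 to GRCm39 (the labels also list WBcel235) with Ensembl annotation and deposited counts per gene from HTSeq 2.01, without normalization. The deposited normalized signal per gene is each count after division by that library's DESeq2 size factor. The kit was stranded, but the strand setting and the treatment of reads with several matches are not given in the sources used here, so overlapping and near-identical genes are uncertain. Labels and methods name different instruments.

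Of 55414 genes, 6250 without counts were left out, and the 25128 with at least 10 counts in sum entered the fit in edgeR 4.0.16 under R 4.3.3 (TMM, 1 robust quasi-likelihood fit of 9 libraries with group as the only term, Benjamini-Hochberg, threshold 0.05). No library pair of a group agreed within sampling noise, and no column of values went unused (0). Ratios used a pseudocount of 1 count. Lengths, positions and sequences came from GENCODE M21 on GRCm38, matched by identifier for 99.6% of the genes tested, since no GRCm39 genome was used here. Alternatives were DESeq2 1.42.0, other scalings and filters, fits of the groups compared, a transcript length offset and each library left out. In counts simulated with a set spread, the test called 100 of 100 well-counted genes raised 2-fold and 64 of 100 raised 1.3-fold. It called 11 of 24350 unchanged genes, and smaller changes were not simulated. Named genes are the 10 members, pathway genes called in any comparison, Pgk1, Gapdh, Aldoart2, Pgam1, Pgam2, and the 3 genes nearest to Pgk2, Gapdhs and Aldoart1. One gene of the pathway list is counted in it but not reported here. Members and lists were chosen with earlier results of these data known.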

Additional observations from a re-analysis of the deposited data

How the results depend on the processing

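Counts of calls depended most on single libraries. Leaving out each library in turn gave from 669 to 2305 genes for oxamate against vehicle (1303 with all), from 1385 to 4417 for both compounds against oxamate (2823), from 2961 to 6182 for both compounds against vehicle (4534) and from 3156 to 7338 for any difference among the 3 groups (4974), the highest always without oxamate library 4. Oxamate against vehicle gave 669 without vehicle library 2. Both compounds against oxamate gave 1447 without library 5, 1385 without library 7, 1489 without library 8 and 1752 without library 9. Both compounds against vehicle gave 2961 without library 7, and any difference gave 3156 without library 7 and 3230 without library 8. The fit of only the groups compared gave 723 for oxamate against vehicle. Members called lower numbered from 0 to 2 for oxamate against vehicle (0 with all), from 1 to 3 for both compounds against oxamate (3, and 1 without library 8) and from 2 to 4 for both compounds against vehicle (3). The transcript length offset called 1 member lower for oxamate against vehicle (Gpi1) and 1 higher for both compounds against vehicle (the second Aldoa row, 0.28). The cause was not tested. For both compounds against oxamate, 28.3% of calls were higher, 42.1% by DESeq2's test and 44.3% with no filter, and for both compounds against vehicle 41.4%, and 52.6% with no filter.

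Among the genes of the pathway named here, no log2 fold change past the threshold changed sign under any alternative. Several near 0 did. For oxamate against vehicle, leaving out libraries gave -0.048 to 0.092 for Pfkp, -0.034 to 0.044 for Aldoart1, -0.028 to 0.11 for Tpi1, -0.029 to 0.059 for Gapdhs, -0.049 to 0.021 for Pkm and -0.030 to 0.0058 for Aldoart2, and the length offset gave -0.0048 for Hk1 and -0.023 for Pfkp. For both compounds against oxamate, the ranges were -0.15 to 0.072 for the second Aldoa row, -0.14 to 0.058 for Eno1, -0.0044 to 0.14 for Pfkp, -0.063 to 0.053 for Gapdh, -0.037 to 0.079 for Pgam2 and -0.0049 to 0.088 for Pgk2. Total counts gave -0.0014 for Pgk2, -0.031 for Gapdh and -0.040 for Pgam2, and the length offset 0.014 for the second Aldoa row. For both compounds against vehicle, the ranges were -0.039 to 0.052 for Hk1, -0.095 to 0.015 for Tpi1, -0.035 to 0.034 for Aldoa and -0.018 to 0.098 for Gapdh. Total counts gave -0.061 for Hk1, -0.058 for Aldoa, -0.017 for Aldoart1 and -0.0051 for Gapdh, and the length offset -0.10 for Hk1, -0.012 for Pfkp and 0.044 for Pgam2. The log2 ratios for oxamate against vehicle ranged from -0.037 to 0.076 (Pgk2 to Pgk1), -0.081 to 0.034 (Gapdhs to Gapdh) and -0.039 to 0.034 (Ldhc to Ldha), and for both compounds against vehicle from -0.019 to 0.12 (Aldoart1 to Aldoa). No paired analysis was possible because the replicate numbers run from 1 to 9 with none shared between groups.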
